A study of Mus with 12 samples.

Results

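The 32 genes described here carry glucose through glycolysis to lactate, or sense oxygen and answer to the hypoxia-inducible factors (HIF). Rows were taken by gene symbol, by a rule that uses no measured value, although the genes were chosen with earlier results of these data known. The 32 genes are 5 HIF factors and oxygen sensors, 3 transporters of glucose and lactate, 18 glycolytic enzymes and 6 hypoxia target genes. They fill 33 of the 27294 rows of the deposited table, because Aldoa has 2 rows with different Ensembl identifiers, which takes the glycolytic enzymes to 19 rows. All 33 rows passed the filter on low counts and were among the 17291 genes tested.

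RNA sequencing libraries were made from primary mouse peritoneal macrophages, as the labels give them, in 4 groups of 3 libraries: knockout (KO) cells given oxLDL, untreated KO cells, wild-type (WT) cells given oxLDL and untreated WT cells. OxLDL is oxidised low-density lipoprotein, the modified cholesterol particle that macrophages of the artery wall take up. The treatment label reads oxLDL while the sample titles read LDL, and libraries with no treatment label are called untreated. The labels give the genotype as KO with no gene and no Cre line, promoter, age, sex, oxLDL dose or time, and the title of the series points to WEE1, a cell cycle kinase, in macrophages and atherosclerosis. They do not say whether replicates came from separate animals, so p-values measure the spread between these libraries, which may be technical.

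Glycolysis splits glucose into pyruvate, and lactate dehydrogenase turns pyruvate into lactate when less of it enters mitochondria. HIF is a pair of a regulated alpha subunit (HIF-1α, gene Hif1a, or HIF-2α, gene Epas1) and a constant partner, ARNT. Prolyl hydroxylases (genes Egln1 and Egln3) mark the alpha subunits for destruction while oxygen is present, and inflammatory signals raise Hif1a transcription in macrophages. Genes for glucose transport, most glycolytic steps, angiogenesis and collagen hydroxylation are known HIF targets. In macrophages, inflammatory activation is known for a shift toward glycolysis. The measurements below are of RNA, so HIF protein and metabolic flux were not measured.

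Counts summed to 53588814 to 76809931 per library, with replicate 2 the shallowest in both WT groups. Wee1 averaged 1.38 ± 0.19 FPKM in KO oxLDL libraries, 1.49 ± 0.23 in untreated KO libraries, 1.62 ± 0.17 in WT oxLDL libraries and 3.05 ± 0.23 in untreated WT libraries (SD, n = 3 each). Its KO minus WT log2 difference was -0.93 ± 0.14 (SE; adjusted p = 0.000139) untreated and -0.53 ± 0.14 (SE; adjusted p = 0.00587) with oxLDL, so Wee1 RNA was lower in KO libraries without being absent. All 8 macrophage markers were present in every group, and their summed FPKM was 10700 to 11300 in KO oxLDL, 11100 to 11800 in untreated KO, 14900 to 15900 in WT oxLDL and 21100 to 21500 in untreated WT libraries. Most of that sum was Lyz2, which averaged 8536, 8857, 12450 and 18500 FPKM in the same groups. With oxLDL in WT, 6 of the 8 were called higher and 2 lower, against 23.9% and 27.2% of all genes, on the scaling described below. In KO against WT, 7 of the 8 were called lower and 1, Cd68, higher in either treatment. Of all genes, 16.2% were lower and 14.8% higher untreated, and 27.4% and 30.6% with oxLDL. The log2 difference of Cd68 was 0.40 untreated and 0.24 with oxLDL. The largest differences with oxLDL were those of Cd14 (-4.13), Fcgr1 (-4.12) and Adgre1 (-2.63). Markers of large peritoneal macrophages summed to 1.49 to 1.69 FPKM in KO oxLDL, 1.57 to 1.67 in untreated KO, 2.44 to 3.11 in WT oxLDL and 3.59 to 4.01 in untreated WT libraries. Timd4 averaged 0.094, 0.013, 1.75 and 1.47 FPKM in the same groups. It was called lower in KO both untreated (log2 difference -6.57) and with oxLDL (-4.48). Icam2 was called lower in KO untreated (-0.51) but not called with oxLDL (0.23). Gata6 was not called between genotypes in either treatment. Of the adipocyte markers, Adipoq and Plin1 were at or near 0 everywhere (at most 0.1005 and 0.02165 FPKM), while Fabp4, which macrophages also express, set the list's sum, 102 to 133 FPKM in KO oxLDL, 116 to 132 in untreated KO, 10.1 to 12.5 in WT oxLDL and 61.1 to 65.5 in untreated WT libraries. The extraction protocol in the labels mentions adipose material, while the source label gives macrophages. NK cell markers summed to 0.0167 to 0.0582 FPKM in KO oxLDL, 0 to 0.0828 in untreated KO, 0.595 to 1.01 in WT oxLDL and 0.63 to 0.98 in untreated WT libraries. Ncr1 and Eomes had no counts in either KO group. Klrb1c, the remaining marker, went the other way, with 26 counts in KO oxLDL, 24 in untreated KO, 8 in WT oxLDL and 12 in untreated WT libraries. Its counts were too low to be tested. T cell markers summed to 0.578 to 0.724 FPKM in KO oxLDL, 0.446 to 0.625 in untreated KO, 0.695 to 1 in WT oxLDL and 2.57 to 2.73 in untreated WT libraries. Cd4 made up most of this sum, with means of 0.625, 0.551, 0.658 and 2.08 FPKM in the same groups. Cd3e and Trac had no counts in either KO group. In WT oxLDL and untreated WT libraries Cd3e had 33 and 53 counts and Trac 22 and 91. Cd8a had 0 counts in KO oxLDL, 4 in untreated KO, 53 in WT oxLDL and 50 in untreated WT libraries. Cd3d had 9, 4, 5 and 4 counts in the same groups. Mast cell markers summed to 0.678 to 0.823 FPKM in KO oxLDL, 0.508 to 0.96 in untreated KO, 1.28 to 1.47 in WT oxLDL and 2.3 to 3.02 in untreated WT libraries. Neutrophil markers summed to 1.33 to 1.68 FPKM in KO oxLDL, 1.32 to 1.61 in untreated KO, 3.13 to 4.1 in WT oxLDL and 2.82 to 3.41 in untreated WT libraries. S100a8, the neutrophil marker that was tested, was lower in KO both untreated (log2 difference -0.99, adjusted p = 0.0024) and with oxLDL (-1.58, adjusted p = 1.77e-05). Fibroblast markers summed to 6.04 to 6.66 FPKM in KO oxLDL, 5.6 to 5.96 in untreated KO, 8.47 to 10.1 in WT oxLDL and 9.1 to 10.1 in untreated WT libraries. Of the 4, Col1a1, Pdgfra and Dcn were called lower in KO in both treatments and Col3a1 in neither. Of all genes, 16.2% were lower in KO untreated and 27.4% with oxLDL. B cell, mesothelial and erythroid markers each summed to at most 1.35 FPKM. The part of these markers in the results below was not tested, and in bulk libraries fewer cells of a type and less RNA per cell cannot be told apart.

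Levels are given as FPKM, the authors' fragment counts corrected for transcript length and library depth. Differences are edgeR's fitted log2 values on the counts after TMM scaling, with their standard errors (SE), and a call means an adjusted p below 0.05 (Benjamini-Hochberg, across the 17291 genes). The 2 scales differ for WT oxLDL libraries, whose TMM factors were 0.832 to 0.843, against 1.1 to 1.13 in untreated WT libraries and 1.03 to 1.04 in both KO groups. Scaling by library totals alone moved the median log2 change of all genes with oxLDL in WT to -0.46, against -0.06 with TMM. Its effect is given beside many of the results it turns or in the closing sections, but not for every row. The ± after a level or share is the SD over 3 libraries, and after a log2 difference the SE. Positions are those of the deposited table, which overlap GRCm38 positions of the same genes.

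With oxLDL, WT libraries changed in most of these genes and in both directions. Of the 33 rows, 13 (39.4%) rose and 12 (36.4%) fell, where 23.9% and 27.2% of all genes tested rose and fell. The median log2 change was 0.00 over the 33 rows and -0.06 over all genes, and the median absolute change was 0.58 and 0.54. The genes that rose were Hif1a, Slc2a1, Slc16a3, Hk1, Hk2, Hk3, Pfkp, Pfkfb3, Gapdh, Pgk1, Ldha, P4ha1 and P4ha2. Those that fell were Epas1, Egln1, Gpi1, Pfkl, Pfkm, Aldoc, the smaller Aldoa row, Tpi1, Ldhb, Pdk1, Vegfa and Ndrg1. With library totals alone the counts were 9 up and 21 down, where 12.9% of all genes rose and 48.1% fell on that scaling. Slc16a3, Gapdh and Pgk1 were then not called. Ldha turned to a called fall, and Arnt, Egln3, Slc2a3, Aldoa, Pgam1, Eno1, Pkm and Bnip3 were called lower as well. The plot of change under both scalings shows which genes sit within that shift.

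**Figure D1:**
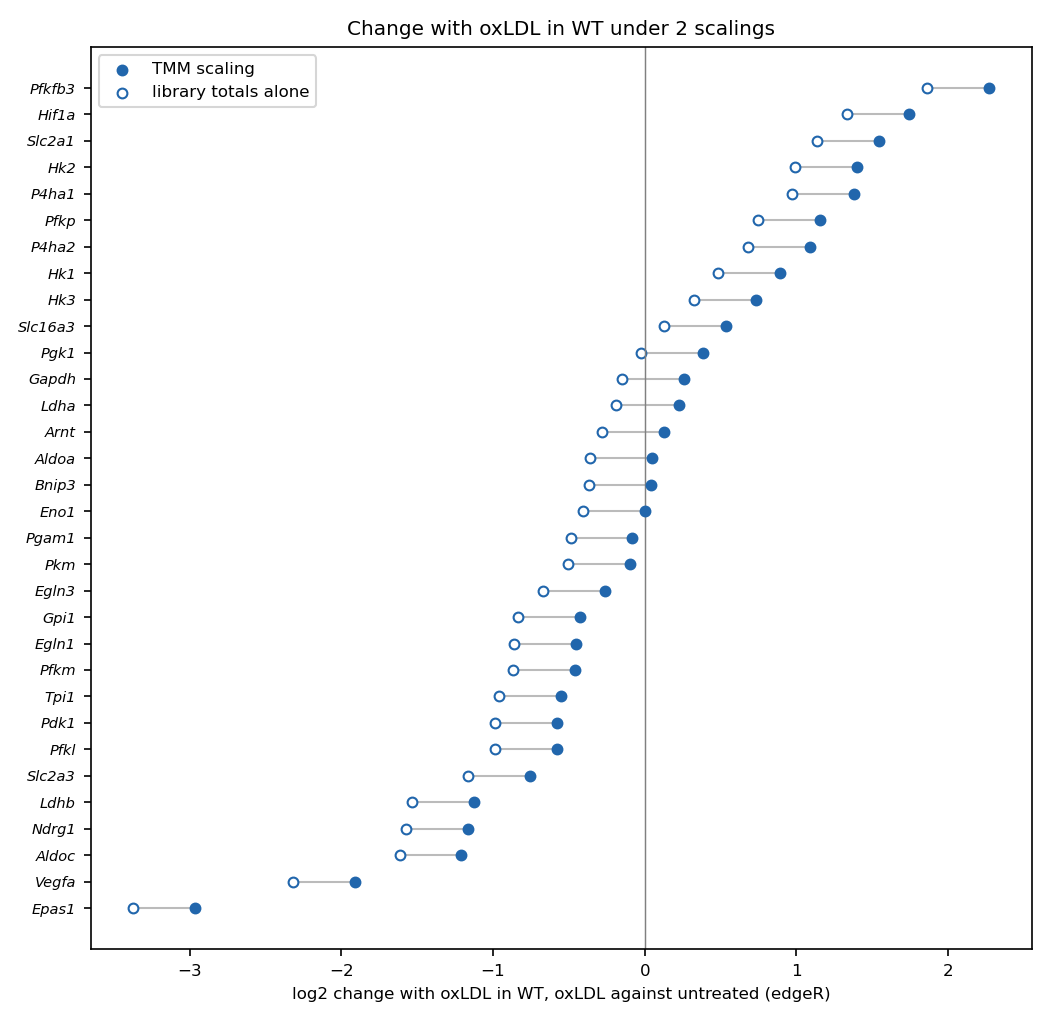
Fitted log2 change with oxLDL in WT libraries (oxLDL against untreated) for the 32 genes, each on its own row, with TMM scaling (filled) and with library totals alone (open), the smaller Aldoa row left out. Every gene moves left by a similar amount, and Pgk1, Gapdh, Ldha, Arnt, Aldoa, Bnip3 and Eno1 are the genes whose filled point lies at or above 0 and whose open point lies below it.

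In KO libraries the same treatment gave no call among the 33 rows with edgeR, DESeq2 or limma. All genes gave 0.0116% called higher and 0% called lower. The fitted changes of the 33 rows ran from -0.21 to 0.48 on the log2 scale, with a median of 0.04 against 0 over all genes, and the median absolute change was 0.06 against 0.11. At an unadjusted p under 0.05 there were 3 rows, Hif1a (-0.11 ± 0.046), Slc16a3 (0.35 ± 0.12) and Hk3 (0.11 ± 0.044), named after their values were seen, and 7% of all genes passed the same level. The adjusted p-values of these 3 genes were 0.642, 0.49 and 0.608. The difference between genotypes in the oxLDL change, called the interaction here (the change in KO minus that in WT), passed the threshold for 23 of the 33 rows, 11 positive and 12 negative, where 22.1% and 19.6% of all genes did. The interaction shares its WT libraries with the WT comparison, so the 2 results are not independent of each other. With library totals alone the interaction was positive in 19 rows and negative in 8, where it was in 41.5% and 10.6% of all genes.

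**Figure D2:**
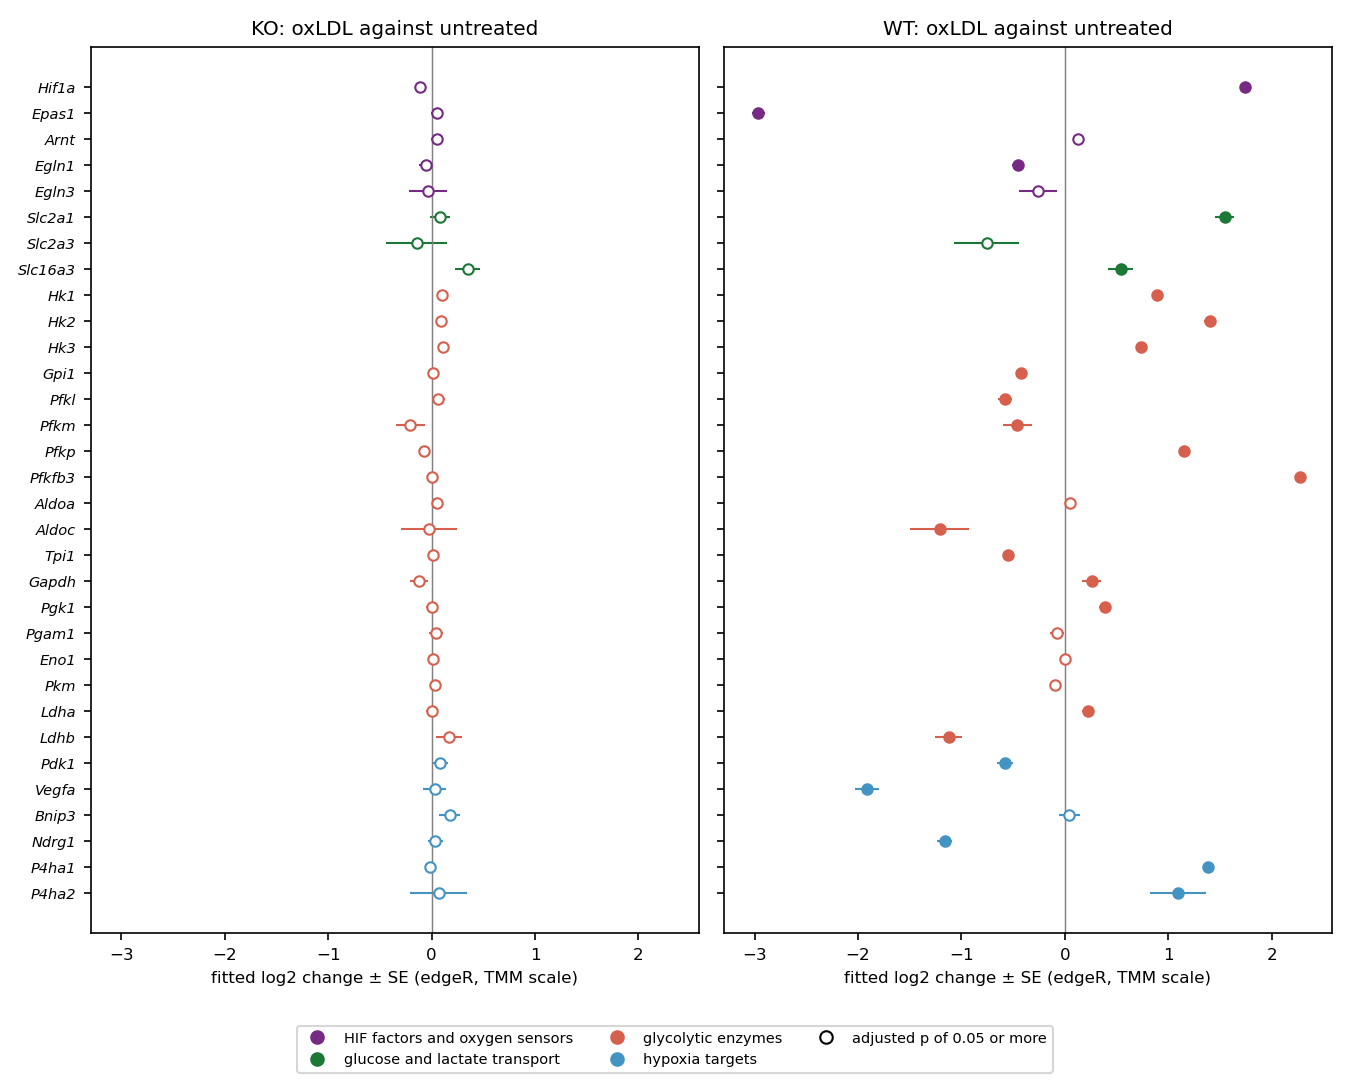
Fitted log2 change with oxLDL (edgeR, TMM scale, ± SE) in KO libraries on the left and in WT libraries on the right, by role, with open points for an adjusted p of 0.05 or more and the smaller Aldoa row left out. The KO points lie between -0.21 and 0.35, while the WT points run from -2.96 for Epas1 to 2.27 for Pfkfb3.

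Among the HIF factors, the 2 alpha subunits moved in opposite directions with oxLDL in WT libraries. Hif1a (ENSMUSG00000021109, chromosome 12, 73901375 to 73947530) had 24.3, 24.6 and 24.1 FPKM in KO oxLDL libraries and 26.03, 25.4 and 27.3 in untreated KO libraries. In WT, Hif1a had 94.8, 102 and 94.96 FPKM with oxLDL and 39.7, 39.2 and 36.7 untreated. Each WT oxLDL library was above every other library, and untreated WT libraries were above both KO groups. The log2 difference with oxLDL was -0.11 ± 0.046 in KO and 1.75 ± 0.046 (adjusted p = 6.14e-13) in WT, with an interaction of -1.85 ± 0.065 (adjusted p = 2.86e-11). Epas1 (ENSMUSG00000024140, chromosome 17, 86753700 to 86833410) had 55.2, 56.1 and 58.7 FPKM in KO oxLDL libraries and 54.6, 54.9 and 54.05 in untreated KO libraries. In WT, Epas1 had 1.38, 1.69 and 1.704 FPKM with oxLDL and 16.5, 16.01 and 16.9 untreated. The order was reversed for this gene, since both KO groups were highest and WT oxLDL libraries lowest, with no overlap between WT groups or between genotypes. Its log2 difference with oxLDL was 0.06 ± 0.060 in KO and -2.96 ± 0.067 (adjusted p = 1.65e-13) in WT, with an interaction of 3.02 ± 0.090 (adjusted p = 6.54e-12). Without treatment, Epas1 was higher in KO than in WT (1.83 ± 0.061, adjusted p = 1.11e-11) and Hif1a lower (-0.45 ± 0.046, adjusted p = 2.52e-06).

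As a share of the FPKM of both alpha subunits, Hif1a made up 30.1 ± 0.81% in KO oxLDL, 32.5 ± 0.97% in untreated KO, 98.4 ± 0.17% in WT oxLDL and 70.1 ± 1.4% in untreated WT libraries (SD, n = 3 each). This share was chosen after the values were seen, and it does not depend on library scaling. Epas1 was thus the more abundant alpha subunit RNA in KO libraries and Hif1a in WT libraries.

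Their partner Arnt averaged 9.58 ± 0.19 FPKM in KO oxLDL, 9.24 ± 0.011 in untreated KO, 7.62 ± 0.55 in WT oxLDL and 9.24 ± 0.33 in untreated WT libraries. It passed no test with TMM scaling, and its WT oxLDL change of 0.13 ± 0.054 (adjusted p = 0.0601) turned to a called -0.28 with library totals. Its interaction of -0.08 ± 0.076 turned to a called 0.33 with library totals. On the TMM scale the WT change of Arnt was called without WT oxLDL replicate 3 (adjusted p 0.00916) or untreated WT replicate 1 (adjusted p 0.0498). The oxygen sensor Egln1, the main HIF prolyl hydroxylase, averaged 8.06 ± 0.29 FPKM in KO oxLDL, 8.38 ± 0.11 in untreated KO, 5.12 ± 0.28 in WT oxLDL and 9.31 ± 0.29 in untreated WT libraries. Egln1 fell with oxLDL in WT (-0.45 ± 0.061, adjusted p = 1.9e-05) and its interaction was 0.40 ± 0.086 (adjusted p = 0.00171). Egln3, a hydroxylase that HIF itself is known to induce, averaged 1.05 ± 0.048 FPKM in KO oxLDL, 1.08 ± 0.19 in untreated KO, 0.6098 ± 0.07 in WT oxLDL and 0.977 ± 0.11 in untreated WT libraries. It was not called with oxLDL in WT (-0.26 ± 0.18, adjusted p = 0.266). Egln3 was called higher in KO than in WT with oxLDL (0.48 ± 0.18, adjusted p = 0.039), a call lost without any single library of those 2 groups (adjusted p 0.0517 to 0.147). Across the 5 genes, 1 rose and 2 fell with oxLDL in WT, where 23.9% and 27.2% of all genes did. The interaction was positive in 2 and negative in 1, against 22.1% and 19.6% of all genes.

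**Figure D3:**
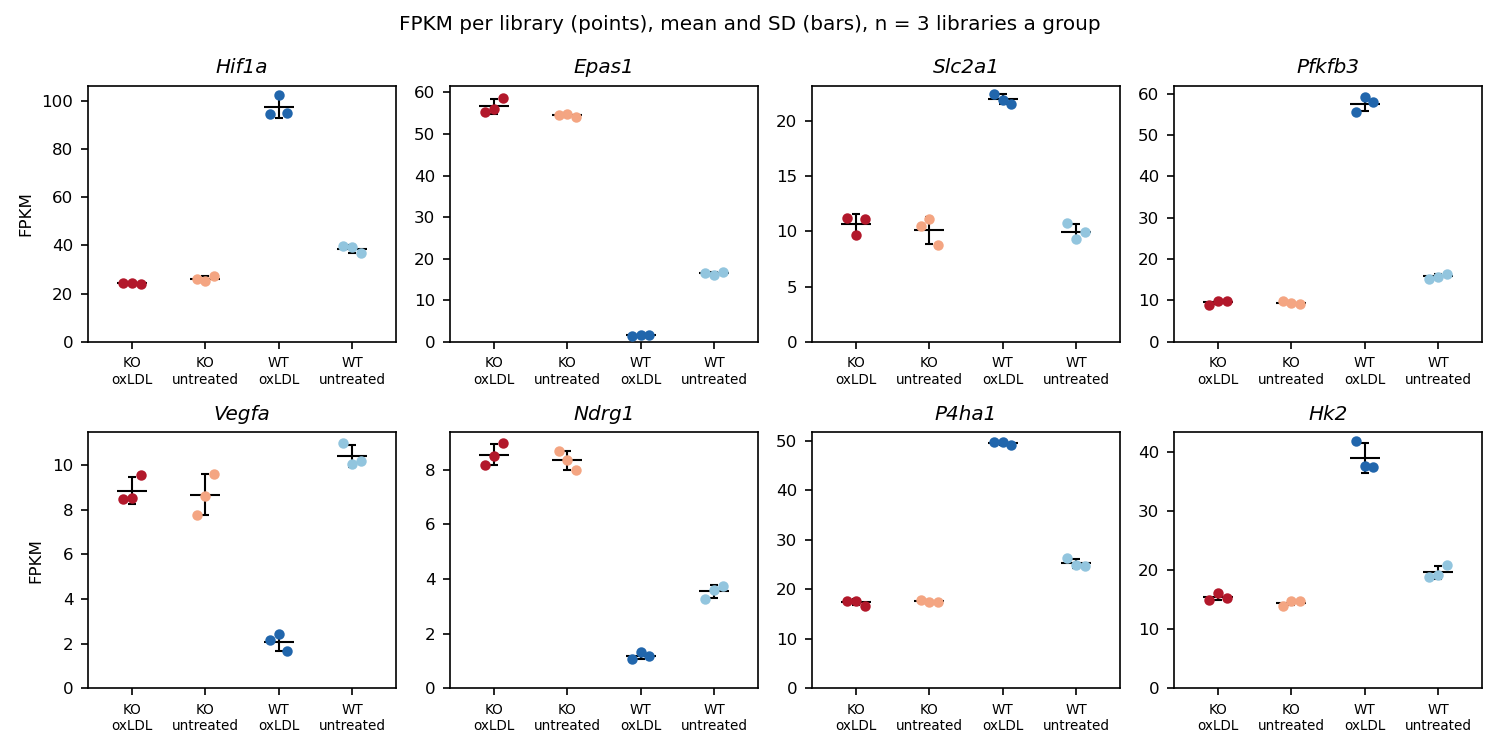
FPKM in each library (points) with group mean and SD (bars) for 8 genes, in the groups KO oxLDL, KO untreated, WT oxLDL and WT untreated from left to right, n = 3 libraries each. Hif1a, Slc2a1, Pfkfb3, P4ha1 and Hk2 are highest in WT oxLDL libraries and Epas1, Vegfa and Ndrg1 lowest there, and the KO groups lie close together in all 8 genes.

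Of the listed glucose transporters, Slc2a1 and Slc2a3, only Slc2a1 was called with oxLDL in WT or in the interaction on the TMM scale. Sugar transporters outside this list are given further below. Slc2a1 (chromosome 4, 119108711 to 119137983), which encodes the glucose transporter GLUT1, had 11.2, 9.65 and 11.2 FPKM in KO oxLDL libraries and 10.5, 11.1 and 8.73 in untreated KO libraries. In WT, Slc2a1 had 22.5, 21.9 and 21.6 FPKM with oxLDL and 10.7, 9.28 and 9.94 untreated. The WT oxLDL libraries stood above all others, which overlapped each other. The oxLDL change was 0.08 ± 0.092 in KO and 1.55 ± 0.092 (adjusted p = 3.17e-09) in WT, and the interaction -1.46 ± 0.13 (adjusted p = 4.06e-07). Slc2a3, which encodes the high-affinity transporter GLUT3, had 0.2898, 0.651 and 0.3702 FPKM in KO oxLDL libraries and 0.374, 0.553 and 0.517 in untreated KO libraries. In WT, Slc2a3 had 0.1198, 0.113 and 0.167 FPKM with oxLDL and 0.2104, 0.384 and 0.318 untreated. It was at most 0.651 FPKM and lowest in all WT oxLDL libraries, but the change there missed the threshold (-0.76 ± 0.31, adjusted p = 0.0585) and so did its interaction (0.61 ± 0.43, adjusted p = 0.295). Without KO oxLDL replicate 1 or 2, WT oxLDL replicate 3 or untreated WT replicate 1, the WT change of Slc2a3 was called (adjusted p 0.0278 to 0.0428). Between genotypes with oxLDL, Slc2a3 was called higher in KO than in WT (1.39 ± 0.31, adjusted p = 0.0015). Slc2a1 was called lower there (-1.34 ± 0.0915, adjusted p = 9.48e-09).

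Lactate leaves the cell through MCT4, the product of Slc16a3, which averaged 4.39 ± 0.2 FPKM in KO oxLDL, 3.45 ± 0.23 in untreated KO, 6.45 ± 1.1 in WT oxLDL and 5.904 ± 0.91 in untreated WT libraries. It rose with oxLDL in WT on the TMM scale (0.54 ± 0.12, adjusted p = 0.00155), while the FPKM of its WT groups overlapped and library totals gave 0.13, which was not called. Slc16a3 was lower in KO than in WT both untreated (-0.67 ± 0.12, adjusted p = 0.00054) and with oxLDL (-0.86 ± 0.12, adjusted p = 2.15e-05), and its interaction was not called (-0.19 ± 0.17, adjusted p = 0.418).

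Of the 19 glycolytic rows, 8 rose and 7 fell with oxLDL in WT, where 23.9% and 27.2% of all genes did. The interaction was positive in 6 and negative in 8, against 22.1% and 19.6% of all genes. With library totals alone 5 rose and 12 fell, against 12.9% and 48.1% of all genes. The interaction was then positive in 12 and negative in 5, against 41.5% and 10.6%. The genes that rose by more than 1 log2 unit were Hk2, Pfkp and Pfkfb3, which act at the hexokinase and phosphofructokinase steps, and Ldhb, Aldoc and the smaller Aldoa row fell by more than 1.

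All 3 hexokinases, which trap glucose as glucose phosphate, rose with oxLDL in WT. Hk1 had 10.1, 10.4 and 10.1 FPKM in KO oxLDL libraries and 9.53, 9.62 and 9.26 in untreated KO libraries. In WT, Hk1 had 21.03, 18.6 and 19.4 FPKM with oxLDL and 13.7, 13.97 and 14.7 untreated. Hk2 (chromosome 6, 82725025 to 82774454), the inducible form, had 15.01, 16.2 and 15.3 FPKM in KO oxLDL libraries and 13.98, 14.9 and 14.7 in untreated KO libraries. In WT, Hk2 had 41.95, 37.7 and 37.5 FPKM with oxLDL and 18.9, 19.2 and 20.9 untreated. For both genes the WT oxLDL libraries were highest and untreated WT libraries second, with both KO groups below them. In WT the oxLDL change was 0.89 ± 0.048 (adjusted p = 9.3e-10) for Hk1 and 1.40 ± 0.053 (adjusted p = 2.19e-11) for Hk2. In KO it was 0.10 ± 0.048 for Hk1 and 0.09 ± 0.053 for Hk2. The interactions were -0.79 ± 0.068 (adjusted p = 2.97e-07) for Hk1 and -1.31 ± 0.075 (adjusted p = 4e-09) for Hk2.

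Hk3, a hexokinase of myeloid cells, was by far the most abundant per length, with 204 ± 5 FPKM in KO oxLDL, 189 ± 8 in untreated KO, 252 ± 9.3 in WT oxLDL and 201 ± 6.6 in untreated WT libraries. It made up 88.8 ± 0.31% of hexokinase FPKM in KO oxLDL, 88.7 ± 0.34% in untreated KO, 81.1 ± 0.61% in WT oxLDL and 85.6 ± 0.33% in untreated WT libraries. Hk3 also rose with oxLDL in WT (0.73 ± 0.044, adjusted p = 3.03e-09) with a smaller fitted change than that of Hk2. The Hk2 share was 6.75 ± 0.24% in KO oxLDL, 6.82 ± 0.29% in untreated KO, 12.6 ± 0.47% in WT oxLDL and 8.37 ± 0.23% in untreated WT libraries.

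At phosphofructokinase, the committed step, the isoenzymes moved in opposite directions. Pfkl, the liver-type subunit, had 14.97, 15.4 and 15.4 FPKM in KO oxLDL libraries and 14.5, 14.8 and 14.4 in untreated KO libraries. In WT, Pfkl had 16.7, 14.2 and 13.4 FPKM with oxLDL and 28.9, 28.2 and 30.9 untreated. Untreated WT libraries were highest, and WT oxLDL libraries overlapped both KO groups. Pfkp, the platelet-type subunit, had 7.63, 8.104 and 8.06 FPKM in KO oxLDL libraries and 8.72, 8.07 and 8.19 in untreated KO libraries. In WT, Pfkp had 13.5, 14.3 and 14.3 FPKM with oxLDL and 8.58, 7.75 and 8.83 untreated. Here WT oxLDL libraries were highest and the other 3 groups overlapped. With oxLDL in WT, Pfkl fell (-0.58 ± 0.066, adjusted p = 3.63e-06) and Pfkp rose (1.15 ± 0.054, adjusted p = 2.22e-10), and the interactions were 0.64 ± 0.093 (adjusted p = 5.77e-05) for Pfkl and -1.22 ± 0.077 (adjusted p = 9.99e-09) for Pfkp.

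The Pfkp share of phosphofructokinase FPKM was 32.5 ± 0.5% in KO oxLDL, 34.3 ± 1.2% in untreated KO, 47.5 ± 3.5% in WT oxLDL and 21.4 ± 0.62% in untreated WT libraries. The Pfkl share was 62.5 ± 0.15%, 59.9 ± 0.79%, 49.7 ± 3.8% and 74.8 ± 0.75% in the same groups. Pfkp overlaps Pitrm1 on the opposite strand, whose counts reached 69.8% of those of Pfkp, and the strand setting of the counting is not given in the sources used here. Pfkm, the muscle-type subunit, was at 1.22 ± 0.085 FPKM in KO oxLDL, 1.41 ± 0.14 in untreated KO, 0.823 ± 0.071 in WT oxLDL and 1.51 ± 0.094 in untreated WT libraries. It overlaps Senp1, whose 2493 to 4387 counts exceeded those of Pfkm, so its fall with oxLDL in WT (-0.46 ± 0.14, adjusted p = 0.013) is uncertain.

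Pfkfb3 (chromosome 2, 11471433 to 11554077), whose product makes an allosteric activator of phosphofructokinase, had 9.01, 9.77 and 9.76 FPKM in KO oxLDL libraries and 9.83, 9.32 and 9.26 in untreated KO libraries. In WT, Pfkfb3 had 55.6, 59.1 and 57.95 FPKM with oxLDL and 15.3, 15.8 and 16.4 untreated. It had the largest rise of the 33 rows with oxLDL in WT, 2.27 ± 0.043 (adjusted p = 5.23e-14), against 0.01 ± 0.044 in KO. Untreated WT libraries were also above both KO groups (-0.63 ± 0.044, adjusted p = 3.18e-08 for KO minus WT), which overlapped, and the interaction was -2.26 ± 0.062 (adjusted p = 3.84e-12).

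**Figure D4:**
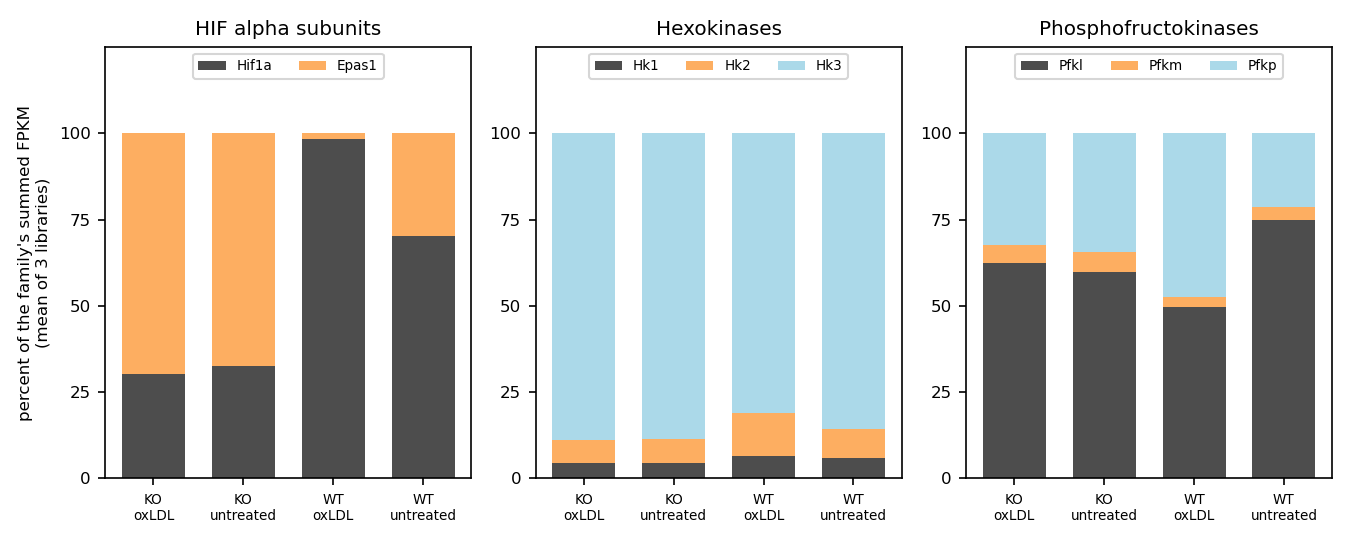
Share of each gene in the summed FPKM of its family, as the mean of 3 libraries per group, for the HIF alpha subunits, the hexokinases and the phosphofructokinases. Hif1a makes up 98.4% of its pair in WT oxLDL libraries and 30.1% in KO oxLDL libraries, Hk3 dominates its family in every group, and Pfkp is at its highest share, 47.5%, in WT oxLDL libraries.

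At the middle steps 2 isomerases and the minor aldolase Aldoc fell with oxLDL in WT, as did the smaller Aldoa row, which rests on few counts. Gpi1, glucose phosphate isomerase, averaged 39.1 ± 0.99 FPKM in KO oxLDL, 38.7 ± 0.91 in untreated KO, 26.8 ± 0.98 in WT oxLDL and 47.7 ± 0.81 in untreated WT libraries. It fell with oxLDL in WT (-0.42 ± 0.041, adjusted p = 6.41e-07). Tpi1, triose phosphate isomerase, averaged 79.5 ± 3.8 FPKM in KO oxLDL, 78.8 ± 2.7 in untreated KO, 48.1 ± 0.68 in WT oxLDL and 93.5 ± 3.1 in untreated WT libraries. Tpi1 also fell there (-0.55 ± 0.046, adjusted p = 1.22e-07). Both had positive interactions, 0.44 ± 0.058 (adjusted p = 2.4e-05) for Gpi1 and 0.56 ± 0.065 (adjusted p = 5.93e-06) for Tpi1. Aldoa (ENSMUSG00000030695), the main aldolase, averaged 254 ± 1.9 FPKM in KO oxLDL, 245 ± 10 in untreated KO, 241 ± 9.4 in WT oxLDL and 309 ± 12 in untreated WT libraries. It was not called with oxLDL in WT (0.05 ± 0.045, adjusted p = 0.402), a change that library totals turned to a call of -0.36.

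Aldoc, the aldolase best known from brain, was a minor form with 1.17, 1.28 and 0.711 FPKM in KO oxLDL libraries and 0.904, 1.14 and 1.15 in untreated KO libraries. In WT, Aldoc had 0.237, 0.423 and 0.236 FPKM with oxLDL and 0.832, 0.729 and 1.18 untreated. All WT oxLDL libraries were below all others, which overlapped. It fell with oxLDL in WT (-1.21 ± 0.28, adjusted p = 0.00266), and its interaction was 1.19 ± 0.39 (adjusted p = 0.0261). The interaction call of Aldoc was lost without KO oxLDL replicate 1 or 2, untreated KO replicate 1, WT oxLDL replicate 1 or 3, or untreated WT replicate 3 (adjusted p 0.0567 to 0.0766).

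The smaller Aldoa row (ENSMUSG00000114515, chromosome 7, 126800790 to 126809108) had 8, 25 and 7 counts in KO oxLDL, 12, 7 and 9 in untreated KO, 0 in all 3 WT oxLDL and 0, 9 and 11 in untreated WT libraries. On the FPKM scale it had 0.109, 0.382 and 0.103 FPKM in KO oxLDL libraries and 0.179, 0.104 and 0.128 in untreated KO libraries. In WT, the smaller Aldoa row had 0 FPKM in every library with oxLDL and 0, 0.196 and 0.169 untreated. Taking a floor of 3 counts over the group in place of 0, the row was at least 4.94-fold lower in WT oxLDL than in untreated WT libraries and at least 9.58-fold higher in KO oxLDL than in WT oxLDL libraries. Replicate 2 held 25 of the 40 KO oxLDL counts, and without it the second bound was 5.41-fold. That bound was 6.04-fold without WT oxLDL replicate 1 and 6.08-fold without WT oxLDL replicate 3. The first bound was 3.12-fold without WT oxLDL replicate 1, 3.14-fold without WT oxLDL replicate 3 and 7.79-fold without untreated WT replicate 1. The adjusted p of the row was 0.0274 with oxLDL in WT and 0.0462 for the interaction. The interaction call was lost without any single library other than untreated WT replicate 1, and the WT call without any single WT oxLDL library or untreated WT replicate 2 or 3.

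The later enzymes were abundant, and their calls with oxLDL in WT depended on the scaling. Pgk1, phosphoglycerate kinase, averaged 68.3 ± 5.9 FPKM in KO oxLDL, 68.2 ± 2 in untreated KO, 98.5 ± 2.4 in WT oxLDL and 100 ± 5.5 in untreated WT libraries. Its rise with oxLDL in WT on the TMM scale (0.39 ± 0.059, adjusted p = 5.88e-05) and its interaction (-0.39 ± 0.083, adjusted p = 0.00166) both turned sign, uncalled, with library totals. Pgam1, Eno1 and Pkm, which carry the pathway from phosphoglycerate to pyruvate, were not called with oxLDL in WT (-0.08 ± 0.068, adjusted p = 0.355 for Pgam1, 0.00 ± 0.046, adjusted p = 0.996 for Eno1 and -0.10 ± 0.050, adjusted p = 0.121 for Pkm), whereas library totals called all 3 lower, at -0.49, -0.41 and -0.51. Pgam1 averaged 205 ± 12 FPKM in KO oxLDL, 199 ± 6.9 in untreated KO, 122 ± 13 in WT oxLDL and 171 ± 5.2 in untreated WT libraries. Eno1 averaged 57.1 ± 2.2 FPKM in KO oxLDL, 56.5 ± 2.3 in untreated KO, 69.03 ± 2.7 in WT oxLDL and 91.6 ± 1.6 in untreated WT libraries. Pkm averaged 141 ± 1.8 FPKM in KO oxLDL, 138 ± 8.1 in untreated KO, 129.7 ± 4.2 in WT oxLDL and 184 ± 10 in untreated WT libraries. The single left-out libraries that gave a call in WT were WT oxLDL replicate 1 for Pgam1 (adjusted p 0.0201) and untreated WT replicate 2 for Pkm (adjusted p 0.0257). The interactions of these 2 genes were called, as positive, without the same libraries (adjusted p 0.0325 for Pgam1 and 0.0396 for Pkm).

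Gapdh, the enzyme between the triose phosphates and the phosphoglycerates, was listed far below its neighbours, at 3.23 ± 0.21 FPKM in KO oxLDL, 3.52 ± 0.42 in untreated KO, 3.98 ± 0.094 in WT oxLDL and 4.42 ± 0.12 in untreated WT libraries. The table also lists Gapdh-ps15 at a mean of 13 FPKM and Gapdh-ps16 at 8.2 FPKM, copies whose reads are hard to separate from those of Gapdh, and opposite-strand Iffo1 counts reached 143% of those of Gapdh, so the Gapdh values are uncertain. The rise of Gapdh with oxLDL in WT (0.26 ± 0.090, adjusted p = 0.0271) and its interaction (-0.38 ± 0.13, adjusted p = 0.0272) turned sign, uncalled, with library totals. The WT call was lost without WT oxLDL replicate 2 or 3 or any single untreated WT library (adjusted p 0.0563 to 0.0776). The interaction call was lost without KO oxLDL replicate 3, untreated KO replicate 2, WT oxLDL replicate 2 or 3, or untreated WT replicate 1 or 3 (adjusted p 0.0505 to 0.0808). Copies were also listed for Pgam1 (Pgam1-ps2, mean 40.1 FPKM) and Eno1 (Eno1b, 13.3 FPKM), and summing counts with the copies, an alternative chosen after seeing the data, left the calls of Pgam1 and Eno1 as they were in all 5 comparisons. For Gapdh it gave a call in KO minus WT without treatment (-0.31, adjusted p = 0.00121), where the single row had none (-0.22 ± 0.090, adjusted p = 0.0779).

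At the last step, Ldha, which favours making lactate from pyruvate, made up 95% to 98% of lactate dehydrogenase FPKM in the group means and averaged 128 ± 8.5 FPKM in KO oxLDL, 127 ± 6.8 in untreated KO, 106 ± 6 in WT oxLDL and 120.1 ± 2.5 in untreated WT libraries. On the TMM scale Ldha rose with oxLDL in WT (0.22 ± 0.057, adjusted p = 0.00438) and its interaction was -0.22 ± 0.080 (adjusted p = 0.043). Library totals turned both, to a called fall of -0.19 and an interaction of 0.20. The TMM interaction call was also lost when KO oxLDL replicate 3, untreated KO replicate 1 or 2, WT oxLDL replicate 2 or 3 or any single untreated WT library was left out (adjusted p 0.0645 to 0.113). Ldhb, the subunit of heart-type enzyme, had 7.24, 6.84 and 6.1 FPKM in KO oxLDL libraries and 5.87, 5.85 and 6.29 in untreated KO libraries. In WT, Ldhb had 2.49, 1.75 and 2.32 FPKM with oxLDL and 6.21, 5.85 and 6.95 untreated. WT oxLDL libraries were lowest, and the other 3 groups overlapped. Ldhb fell with oxLDL in WT (-1.12 ± 0.13, adjusted p = 4.5e-06) against 0.17 ± 0.13 in KO, and its interaction was 1.29 ± 0.18 (adjusted p = 4.37e-05).

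**Figure D5:**
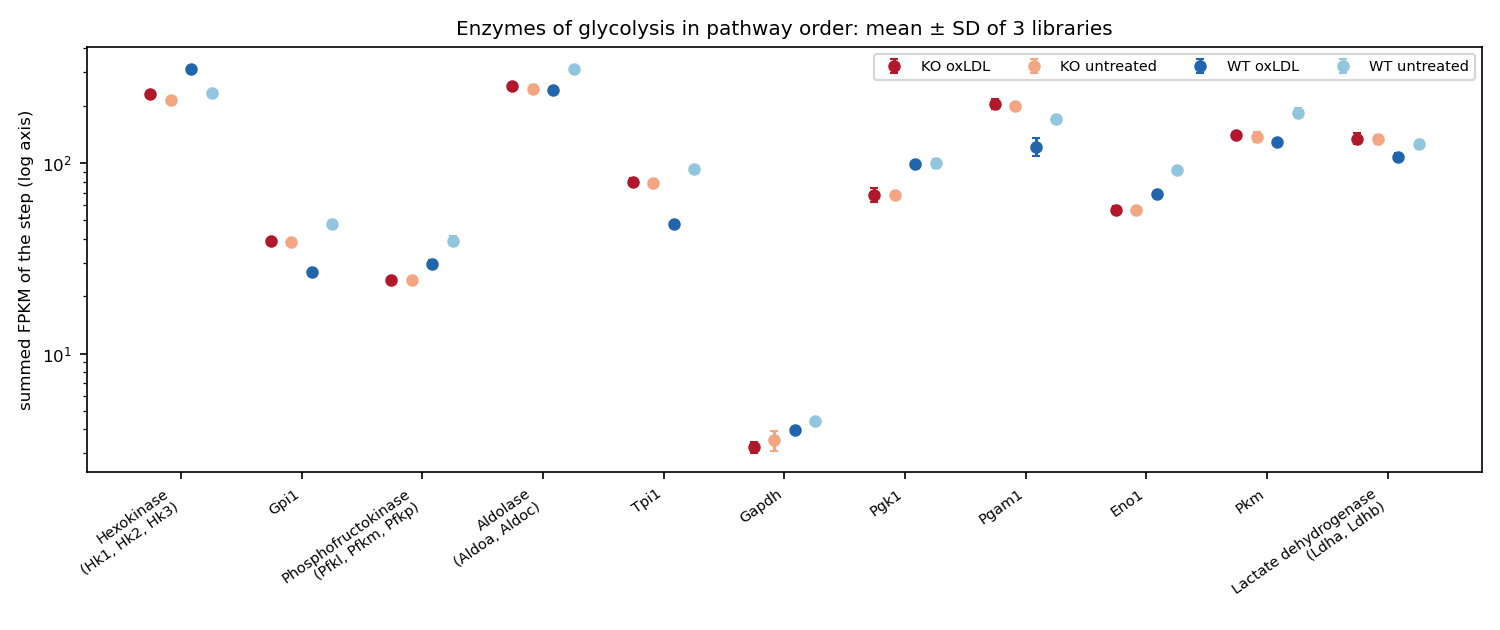
Summed FPKM of the genes of each enzyme step, in pathway order on a log axis, as the mean ± SD of 3 libraries for KO oxLDL, KO untreated, WT oxLDL and WT untreated. The hexokinase step is highest in WT oxLDL libraries (310.2 ± 12 FPKM), Gpi1, Tpi1 and Pgam1 have their lowest FPKM there, and Gapdh lies between 2.996 and 4.513 FPKM in every library.

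Summed over the 17 enzymes of these steps, without the regulator Pfkfb3, glycolytic FPKM was 1237 ± 13 in KO oxLDL, 1198 ± 45 in untreated KO, 1187 ± 35 in WT oxLDL and 1403 ± 38 in untreated WT libraries (SD, n = 3 each). After division by the TMM factors the sums were 1194 ± 13, 1160 ± 49, 1415 ± 40 and 1260 ± 41 in the same groups, so whether WT oxLDL or untreated WT libraries were higher depended on the scaling. No test was made of these sums.

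Hypoxia targets outside glycolysis also went both ways, with 2 up and 3 down of 6 with oxLDL in WT, against 23.9% and 27.2% of all genes. The interaction was positive in 3 and negative in 2, against 22.1% and 19.6% of all genes. Vegfa (chromosome 17, 46016993 to 46032369), which encodes the angiogenic growth factor VEGF-A, had 8.48, 8.53 and 9.55 FPKM in KO oxLDL libraries and 7.79, 8.61 and 9.62 in untreated KO libraries. In WT, Vegfa had 2.15, 2.43 and 1.66 FPKM with oxLDL and 11, 10.1 and 10.2 untreated. It was lowest in WT oxLDL libraries and highest in untreated WT libraries, with the KO groups between and overlapping each other. Vegfa fell with oxLDL in WT (-1.91 ± 0.12, adjusted p = 4.87e-09) against 0.03 ± 0.11 in KO, and its interaction was 1.94 ± 0.16 (adjusted p = 2.28e-07).

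Ndrg1 (chromosome 15, 66929318 to 66969640), a stress and hypoxia response gene, had 8.18, 8.52 and 8.97 FPKM in KO oxLDL libraries and 8.68, 8.36 and 8.01 in untreated KO libraries. In WT, Ndrg1 had 1.09, 1.31 and 1.18 FPKM with oxLDL and 3.28, 3.61 and 3.75 untreated. Both KO groups were above untreated WT libraries, which were above WT oxLDL libraries. It fell with oxLDL in WT (-1.16 ± 0.076, adjusted p = 8.35e-09), was higher in KO than in WT untreated (1.34 ± 0.072, adjusted p = 2.13e-09) and had an interaction of 1.20 ± 0.10 (adjusted p = 3.21e-07). Pdk1, a kinase that holds pyruvate dehydrogenase inactive, had 2.57, 2.702 and 2.43 FPKM in KO oxLDL libraries and 2.44, 2.42 and 2.403 in untreated KO libraries. In WT, Pdk1 had 1.35, 1.42 and 1.505 FPKM with oxLDL and 2.66, 3.06 and 2.77 untreated. WT oxLDL libraries were below all others. Pdk1 fell with oxLDL in WT (-0.58 ± 0.076, adjusted p = 1.57e-05), with an interaction of 0.66 ± 0.11 (adjusted p = 0.000157).

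P4ha1 (chromosome 10, 59323296 to 59373304), a catalytic subunit of collagen prolyl hydroxylase, had 17.7, 17.7 and 16.7 FPKM in KO oxLDL libraries and 17.9, 17.4 and 17.3 in untreated KO libraries. In WT, P4ha1 had 49.8, 49.8 and 49.1 FPKM with oxLDL and 26.2, 24.9 and 24.6 untreated. The WT oxLDL libraries were highest, untreated WT libraries came next, and the KO groups were lowest and overlapped. P4ha1 rose with oxLDL in WT (1.38 ± 0.044, adjusted p = 3.51e-12), against -0.02 ± 0.044 in KO, and had an interaction of -1.40 ± 0.063 (adjusted p = 2.86e-10). Its paralogue P4ha2 was rare, with 0.194, 0.208 and 0.19 FPKM in KO oxLDL libraries and 0.2704, 0.165 and 0.133 in untreated KO libraries. In WT, P4ha2 had 0.473, 0.492 and 0.383 FPKM with oxLDL and 0.201, 0.276 and 0.36 untreated. WT oxLDL libraries were above all others, which overlapped. P4ha2 rose with oxLDL in WT (1.09 ± 0.27, adjusted p = 0.00361), and its interaction (-1.02 ± 0.39, adjusted p = 0.0471) was lost without any single library other than untreated KO replicate 3, WT oxLDL replicate 3 or untreated WT replicate 3 (adjusted p 0.0534 to 0.158). Bnip3, which marks mitochondria for autophagy, averaged 4.22 ± 0.084 FPKM in KO oxLDL, 3.73 ± 0.36 in untreated KO, 3.81 ± 0.28 in WT oxLDL and 4.91 ± 0.4 in untreated WT libraries. It was not called with oxLDL in WT (0.04 ± 0.10, adjusted p = 0.764), a change that library totals turned to a call of -0.37.

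Genotypes were also compared within each treatment. Without treatment, 4 of the 33 rows (12.1%) were higher in KO than in WT and 14 (42.4%) lower, where 14.8% and 16.2% of all genes were. The median log2 difference was -0.14, against -0.01 over all genes. On library totals 3 rows were higher and 16 lower, where 10.2% and 22.3% of all genes were. Epas1, Ndrg1, Pgam1 and Ldha were higher. Of the 19 glycolytic rows 10 were lower, among them Pfkl (-0.90 ± 0.066, adjusted p = 6.07e-08), Pfkfb3 (-0.63 ± 0.044, adjusted p = 3.18e-08), Eno1 (-0.59 ± 0.046, adjusted p = 1.24e-07), Hk1 (-0.47 ± 0.048, adjusted p = 2.44e-06), Pgk1 (-0.45 ± 0.059, adjusted p = 3.04e-05) and Pkm (-0.32 ± 0.050, adjusted p = 0.000173). The other 4 were Hk2 (-0.33 ± 0.053, adjusted p = 0.000219), Gpi1 (-0.20 ± 0.041, adjusted p = 0.00188), Aldoa (-0.23 ± 0.045, adjusted p = 0.00108) and Tpi1 (-0.14 ± 0.046, adjusted p = 0.031). The non-glycolytic genes that were lower were Hif1a, Slc16a3, P4ha1 (-0.42 ± 0.044, adjusted p = 3.32e-06) and Bnip3 (-0.29 ± 0.10, adjusted p = 0.0463).

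Some of these calls rested on single libraries. That of Tpi1 was lost without untreated KO replicate 1 or 3 or untreated WT replicate 1 or 3 (adjusted p 0.0694 to 0.14). The higher call of Ldha (0.19 ± 0.057, adjusted p = 0.0214) was lost without untreated KO replicate 1 or 2 or untreated WT replicate 1 or 2 (adjusted p 0.0552 to 0.0931), and with library totals it was 0.08 and not called. The call of Bnip3 was lost without any single KO oxLDL library, untreated KO replicate 1 or 3, WT oxLDL replicate 2, or untreated WT replicate 2 or 3 (adjusted p 0.05 to 0.201). Gained calls were those of Slc2a3 without KO oxLDL replicate 2 (adjusted p 0.037), Gapdh without untreated KO replicate 2 (0.0112) and P4ha2 without untreated KO replicate 1 (0.0459).

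With oxLDL, 13 rows (39.4%) were higher in KO than in WT and 16 (48.5%) lower, where 30.6% and 27.4% of all genes were. The median log2 difference was -0.15, against 0.05 over all genes. On library totals 17 rows were higher and 13 lower, where 43.6% and 19.1% of all genes were. The median was then 0.15, against 0.36 over all genes, so its sign depended on the scaling. The highest differences were those of Epas1 (4.85 ± 0.067, adjusted p = 5.05e-16) and Ndrg1 (2.54 ± 0.075, adjusted p = 7.39e-13), beside the smaller Aldoa row, and next came Vegfa (1.78 ± 0.12, adjusted p = 6.83e-09). The lowest were Pfkfb3 (-2.90 ± 0.044, adjusted p = 7.72e-16), Hif1a (-2.30 ± 0.046, adjusted p = 1.01e-14), P4ha1 (-1.82 ± 0.044, adjusted p = 7.13e-14), Hk2 (-1.64 ± 0.053, adjusted p = 1.85e-12) and P4ha2 (-1.47 ± 0.27, adjusted p = 0.000329). Of the 19 glycolytic rows 6 were higher and 11 lower, and with library totals 9 were higher and 8 lower, where 43.6% and 19.1% of all genes were. The lower calls of Pfkl (-0.26 ± 0.066, adjusted p = 0.00385), Aldoa (-0.23 ± 0.045, adjusted p = 0.000537) and Pkm (-0.18 ± 0.050, adjusted p = 0.00652) turned sign with library totals, to 0.045 and 0.07, both uncalled, and to a called 0.12. Ldha was not called on the TMM scale (-0.03 ± 0.057, adjusted p = 0.68) and was called at 0.27 with library totals.

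The wider pathway was read from lists of genes outside the 33 rows. Over all genes tested, 23.9% rose and 27.2% fell with oxLDL in WT (12.9% and 48.1% with library totals alone), and the interaction was positive in 22.1% and negative in 19.6%. Of 14 other genes of glycolysis and sugar or lactate transport that were tested, 3 rose and 7 fell with oxLDL in WT, and the interaction was positive in 7 and negative in 3. Library totals alone gave 3 up and 9 down in WT. Slc2a6, which encodes the sugar transporter GLUT6, averaged 11.2 ± 0.72 FPKM in KO oxLDL, 11.1 ± 0.18 in untreated KO, 112 ± 4.7 in WT oxLDL and 34.5 ± 1.2 in untreated WT libraries. Its oxLDL log2 change was 2.11 ± 0.052 in WT and its interaction -2.10 ± 0.074 (SE; adjusted p = 3.38e-13 and 3.05e-11). Slc16a7, a monocarboxylate transporter, averaged 5.49 ± 0.11 FPKM in KO oxLDL, 5.68 ± 0.2 in untreated KO, 1.02 ± 0.2 in WT oxLDL and 4.57 ± 0.27 in untreated WT libraries. It had an oxLDL change of -1.75 ± 0.097 in WT (SE; adjusted p = 1.44e-09). Slc2a8, which encodes GLUT8, averaged 2.04 ± 0.28 FPKM in KO oxLDL, 1.99 ± 0.04 in untreated KO, 0.451 ± 0.22 in WT oxLDL and 1.96 ± 0.039 in untreated WT libraries, and its interaction was 1.72 ± 0.34 (SE; adjusted p = 0.00084).

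Of 25 other HIF pathway genes and hypoxia targets, 9 rose and 9 fell with oxLDL in WT, against 23.9% and 27.2% of all genes. The interaction was positive in 9 and negative in 9, against 22.1% and 19.6%. Library totals alone gave 7 up and 11 down in WT, against 12.9% and 48.1% of all genes. Adm, which encodes the vasodilator peptide adrenomedullin, averaged 0.127 ± 0.032 FPKM in KO oxLDL, 0.183 ± 0.11 in untreated KO, 0.649 ± 0.097 in WT oxLDL and 0.128 ± 0.056 in untreated WT libraries. It had a WT change of 2.67 ± 0.51 and an interaction of -3.23 ± 0.73 (SE; adjusted p = 0.000619 and 0.00248). The directions of the genes named from both lists held with library totals alone.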

How the data were processed

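Counts and FPKM per gene for 12 libraries were read from 1 table deposited by the authors. Per the labels' protocols, poly(A) RNA was sequenced as paired-end libraries. Per the submitters' processing notes the tools were HISAT2 2.0 and Bowtie 0.12.2 and the build mm8; the gene positions in the deposited table overlap GRCm38 positions of the same symbol in RefSeq's gene table for 33 of 33 rows, and positions are printed as the table gives them. The sources used here give no counting tool, annotation or strand setting. FPKM values are the authors', per the file headers, and were not scaled further except where stated.

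Deposited counts were tested with edgeR 4.0.16 in R 4.3.3 (TMM, filterByExpr, quasi-likelihood, 4 groups in 1 fit), with Benjamini-Hochberg adjustment over 17291 genes. The scripts were tested on simulated data. Alternatives were DESeq2 1.42.0, other scalings, no filter, limma 3.58.1 on log2(FPKM + 1) or log2(FPKM + 0.1), a replicate block and leaving out each library. A count summed with near-identical copies, and fits of only the 2 groups compared, were chosen after seeing the data. The members and gene lists were chosen with earlier results of these data known. Values per library are given for the 16 members with the largest interaction, and Slc2a3 so that transport has 2; 2 genes are named per other list and comparison. No promoter or protein sequence was used here.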

Additional observations from a re-analysis of the deposited data

Results flagged for a closer look

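The test of the difference between genotypes in the oxLDL change flagged 23 of the 33 rows, with values given as the log2 change in KO minus that in WT. Among the HIF factors these were Epas1 (3.02), Hif1a (-1.85) and Egln1 (0.40). Among the transporters it was Slc2a1 (-1.46).

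Of the glycolytic enzymes, those with a negative value were Pfkfb3 (-2.26), Hk2 (-1.31), Pfkp (-1.22), Hk1 (-0.79), Hk3 (-0.62), Pgk1 (-0.39), Gapdh (-0.38) and Ldha (-0.22). Those with a positive value were Ldhb (1.29), Aldoc (1.19), Pfkl (0.64), Tpi1 (0.56), Gpi1 (0.44) and the smaller Aldoa row (6.24). The values of Pgk1, Gapdh and Ldha turned positive with library totals alone. That of the smaller Aldoa row rests on 3 WT oxLDL libraries with 0 counts, depends on the prior count and is no bound.

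Of the hypoxia targets, Vegfa (1.94), Ndrg1 (1.20) and Pdk1 (0.66) had a positive value and P4ha1 (-1.40) and P4ha2 (-1.02) a negative one. The value of P4ha2 was -0.61 and no longer called with library totals alone (adjusted p = 0.216).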

How the results depend on the processing

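Library scaling moved the results most. With library totals alone, 21 members fell with oxLDL in WT and the interaction was positive in 19, against 48.1% and 41.5% of all genes. With limma on the FPKM, which is not TMM-scaled, 8 rose and 19 fell with oxLDL in WT and the interaction was positive in 18 for either pseudocount. With pseudocount 1, all 11903 genes tested gave 9238 calls with oxLDL in WT (1983 up) and 8214 interaction calls (6431 positive). With no filter 19 members fell, the interaction was positive in 17 and 2 were higher in KO than in WT without treatment. All 27294 genes then gave 10537 calls with oxLDL in WT (2522 up) and 8679 interaction calls (6547 positive). Between untreated genotypes they gave 5387 calls (1834 higher in KO). As reported, 13 rose and 12 fell with oxLDL in WT, the interaction was positive in 11, and 4 were higher in KO untreated. Of all genes, 23.9%, 27.2%, 22.1% and 14.8% did so, in the same order. The share of called genes that rose with oxLDL in WT was 46.8% with TMM and 21.1% with totals, that of genes higher in KO than in WT 52.8% and 69.5% with oxLDL and 47.8% and 31.5% untreated, and that of positive interactions 53% and 79.6%. Signs turned under library totals, limma with pseudocount 1, limma with 0.1 and limma with no filter, in that order, as follows. With oxLDL in WT, Arnt was at -0.279, -0.25, -0.277 and -0.25, Aldoa at -0.359, -0.358, -0.359 and -0.358, Gapdh at -0.15, -0.122, -0.147 and -0.122, and Pgk1 at -0.022, -0.021, -0.021 and -0.021. Eno1 was at -0.408, -0.403, -0.408 and -0.403, Ldha at -0.186, -0.185, -0.187 and -0.185, and Bnip3 at -0.366, -0.298, -0.359 and -0.298. In KO against WT with oxLDL, Pfkl was at 0.045, 0.047, 0.05 and 0.047, Aldoa at 0.074, 0.073, 0.073 and 0.073, Pkm at 0.123, 0.121, 0.122 and 0.121, and Ldha at 0.273, 0.269, 0.271 and 0.269. For the interaction, Arnt was at 0.334, 0.296, 0.327 and 0.296, Gapdh at 0.033, 0.031, 0.033 and 0.031, Pgk1 at 0.028, 0.019, 0.02 and 0.019, and Ldha at 0.196, 0.19, 0.192 and 0.19. Leaving out each library in turn gave 12 to 13 members up and 11 to 13 down with oxLDL in WT, 0 in KO, 3 to 5 up and 12 to 15 down for KO against WT untreated, 12 to 13 up and 16 down with oxLDL, and 9 to 11 positive and 9 to 12 negative interactions. No member was called with oxLDL in KO under any alternative run, while all genes gave 2 calls as reported, 98 with DESeq2, 61 with only those 2 groups fitted and 57 without WT oxLDL replicate 1. The titles' replicate numbers do not pair the libraries (18 same-number correlations of -0.0449 to 0.031, and 1 of 12 libraries closest to its own number). The replicate block gave 13 members up and 12 down with oxLDL in WT, not all of them the members called without it. It gave calls for Slc2a3 there (adjusted p = 0.0318) and untreated (0.025). It lost those of Tpi1 untreated (0.0522), the smaller Aldoa row with oxLDL in WT (0.0571) and in the interaction (0.108), Ldha (0.0616) and P4ha2 (0.0813), both in the interaction. DESeq2 and edgeR with RLE factors called Arnt higher with oxLDL in WT (0.16 and 0.17) and lost Egln3 in KO against WT with oxLDL (adjusted p = 0.0617 and 0.0598). Depth limits mainly the smaller Aldoa row, with at most 25 counts per library. Why results moved was not tested beyond these settings.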

Other observations

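The pathways that branch from glycolysis were read from lists of genes outside the 33 rows. Of 12 tested genes that govern the entry of pyruvate into mitochondria, 2 rose and 5 fell with oxLDL in WT, where 23.9% and 27.2% of all genes did. With library totals alone 10 fell, where 48.1% of all genes did. Pdk2, a kinase that inactivates pyruvate dehydrogenase, averaged 2.52 ± 0.27 FPKM in KO oxLDL, 2.54 ± 0.14 in untreated KO, 0.297 ± 0.095 in WT oxLDL and 2.28 ± 0.21 in untreated WT libraries (SD, n = 3 each). Pdp1, a phosphatase that activates the same enzyme, averaged 14.2 ± 0.5 FPKM in KO oxLDL, 14.8 ± 1 in untreated KO, 3.37 ± 0.21 in WT oxLDL and 12.4 ± 0.42 in untreated WT libraries. Both had the same direction, although their products act in opposite ways: the oxLDL log2 change in WT was -2.52 ± 0.18 for Pdk2 and -1.47 ± 0.063 for Pdp1 (SE; edgeR, adjusted p = 3.15e-08 and 7.49e-11). The interactions were 2.50 ± 0.25 and 1.42 ± 0.087 (SE; adjusted p = 1.2e-06 and 7.76e-09).

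Of 9 genes of the pentose phosphate pathway, which makes NADPH and ribose, 1 rose and 5 fell with oxLDL in WT, against the same shares of all genes (23.9% and 27.2%), and with library totals alone 8 fell, against 48.1%. Taldo1, transaldolase, averaged 147 ± 16 FPKM in KO oxLDL, 142 ± 8 in untreated KO, 55.6 ± 3.4 in WT oxLDL and 109 ± 4.2 in untreated WT libraries, with a WT log2 change of -0.56 ± 0.072 (SE; adjusted p = 1.27e-05). Shpk, sedoheptulokinase, averaged 1.28 ± 0.093 FPKM in KO oxLDL, 1.36 ± 0.11 in untreated KO, 0.218 ± 0.1 in WT oxLDL and 1.17 ± 0.21 in untreated WT libraries, with a WT change of -1.98 ± 0.27 (SE; adjusted p = 2.02e-05). Of 11 tested genes of gluconeogenesis and glycogen, 8 fell with oxLDL in WT, against 27.2% of all genes, and the interaction was positive in 8, against 22.1%. All 11 fell with library totals alone, against 48.1% of all genes. Pygl, the liver-type glycogen phosphorylase, averaged 11.4 ± 0.38 FPKM in KO oxLDL, 10.97 ± 0.36 in untreated KO, 4.84 ± 0.3 in WT oxLDL and 17.6 ± 0.8 in untreated WT libraries. Its WT log2 change was -1.45 ± 0.056 (SE; adjusted p = 2.6e-11).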
